A study of Homo sapiens with 16 samples.

Results

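The stretch described here is the centromeric region and the long arm of human chromosome 5, taken as every interval of the TOP2B peak lists on chromosome 5 whose midpoint lay at or above 46 Mb on GRCh37. It held 1127 of the 44922 intervals of all lists: 99 of 7493 in the treated knockout, 311 of 9655 in treated wild type, 264 of 12493 in the untreated knockout and 453 of 15281 in untreated wild type. The cells were PC9, an established lung adenocarcinoma line with an activating EGFR mutation. CUT&RUN was used to map TOP2B: an antibody tethers a nuclease that releases the DNA around its target for sequencing. The groups were METTL7A knockout cells grown under osimertinib, an EGFR inhibitor whose dose was raised from 100 nM over 6 to 8 weeks, wild-type cells grown the same way, untreated METTL7A knockout cells and untreated wild-type cells. Each group had 2 TOP2B libraries but 1 deposited list, so no value below has a spread between replicates and no difference between groups could be tested. The 95% intervals given are exact and cover counting error only. The sources used here do not say whether the knockout was 1 clone, and the genotype could not be checked in the lists.

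TOP2B is the beta isoform of type II topoisomerase. It cuts both strands of a DNA duplex, passes another duplex through and reseals the break, which relieves the torsion left by transcription, and in many cell types it is found at open chromatin such as promoters and the anchors of chromatin loops. The long arm of chromosome 5 carries, among many others, the tumour suppressor APC, the clustered protocadherins and the receptor kinase PDGFRB, while the short arm carries TERT, the catalytic subunit of telomerase. Next to the centromere lie satellite repeats, which are short units in long tandem arrays. Genes were not assigned to intervals, because the positions are on GRCh37 and an annotation of that build was not used here.

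All 4 lists had the same outline along the arm, and most of its length was empty. A tight group of intervals lay near 49.4 Mb, next to the centromere, and in every list the first interval past the 46 Mb limit belonged to this group. The last interval before that limit ended at 43314150 in the treated knockout (maximum 0.625 times the list median), at 45910400 in treated wild type (0.818 times), at 45105450 in the untreated knockout (1.0) and at 43157100 in untreated wild type (0.5 times). From the cluster to 130 Mb, the treated knockout list held 2 intervals, the treated wild-type list 0, the untreated knockout list 0 and the untreated wild-type list 3. Each of these 5 intervals was found in a single list and had a maximum below its list's median, at 0.583 to 0.875 times. The longest stretch with no interval in any list ran for 36.6 Mb, from 77928151 to 114502300. An absent interval means that no peak entered the list there, not that the signal was zero.

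Beyond 130 Mb the intervals gathered in blocks with empty stretches between them, of which the longest in all lists together spanned 6.53 Mb from 160521201 to 167053500. The blocks used below run from 130 to 145 Mb, from 145 to 165 Mb, from 165 to 175 Mb and from 175 Mb to the end, and were drawn after the profile had been seen. The last of them was the densest in every list, with 9.34 intervals per Mb in the treated knockout, 21.1 in treated wild type, 15.2 in the untreated knockout and 28.0 in untreated wild type. Among windows of 5 Mb, 175 to 180 Mb held the most intervals in every list: 51 in the treated knockout, 119 in treated wild type, 75 in the untreated knockout and 146 in untreated wild type. Among windows of 1 Mb the fullest was 176 to 177 Mb in the treated knockout (21 intervals), in treated wild type (41) and in untreated wild type (49). In the untreated knockout it was 149 to 150 Mb, with 30 intervals, while 176 to 177 Mb held 17.

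**Figure D1:**
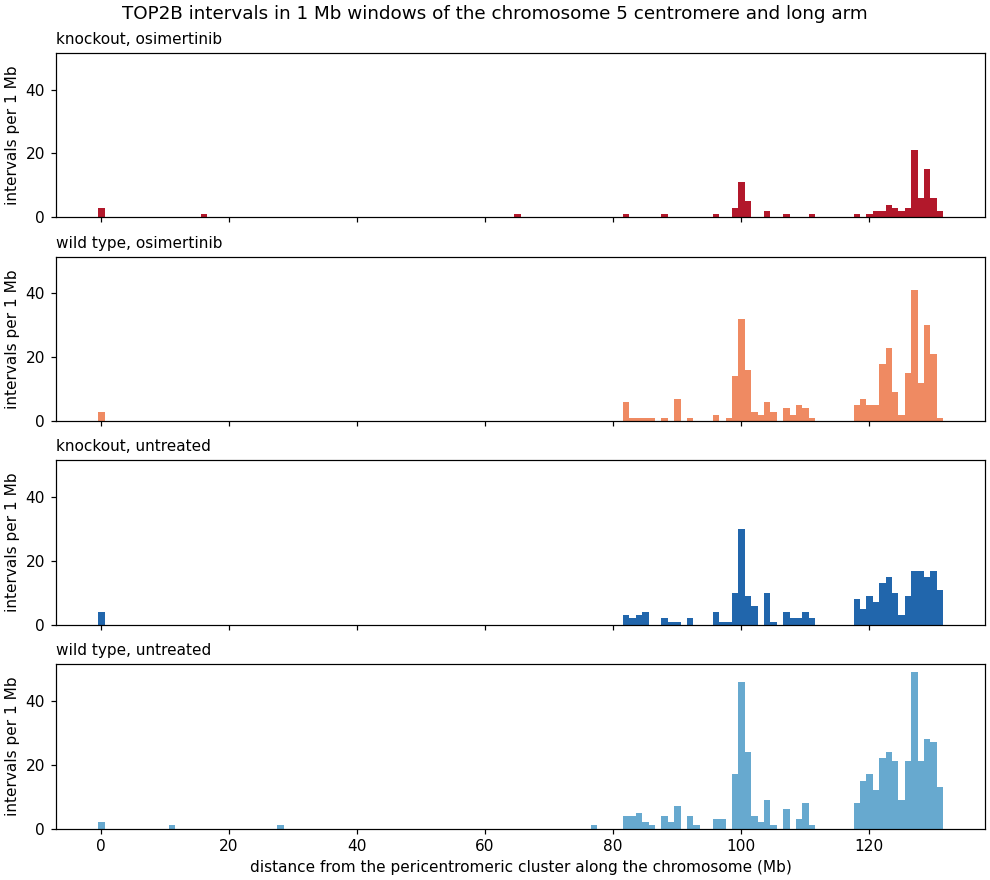
Number of TOP2B intervals in each 1 Mb window, by distance in Mb from the pericentromeric cluster, with 1 panel for each list (bars, intervals whose midpoint lies in the window). The cluster stands at 0, the next 80 Mb or so hold 5 intervals in all, and the peaks of all panels lie near the end of the arm and about 100 Mb from the cluster.

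The pericentromeric cluster held the highest signal of the whole stretch, and the maxima stood at nearly the same bases in all lists that had them. It comprised 4 positions within 10750 bp, from 49429801 to 49440550. The maximum of a called peak is the authors' deposited signal, on a scale that the sources used here do not describe, so each maximum is set against the median maximum of its own list. At the position 49438251 to 49440550, the one found in all lists, the maximum was 6.50 times the list median in the treated knockout, 7.09 times in treated wild type, 4.80 times in the untreated knockout and 5.08 times in untreated wild type. This was the highest maximum of the stretch in each list. Among all called peaks of the list it ranked 13 of 6023 in the treated knockout, 13 of 6616 in treated wild type, 17 of 12284 in the untreated knockout and 14 of 10488 in untreated wild type. These figures describe each list on its own, since ranks and ratios to a median shift with the length and floor of a list.

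The other positions of the cluster were each missing from at least 1 list. The position 49429801 to 49430800 was listed in treated wild type (3.82 times the median), in the untreated knockout (2.20 times) and in untreated wild type (1.83 times), but not in the treated knockout. The position 49433951 to 49435400 was listed in the treated knockout (3.12 times), in treated wild type (4.18 times) and in the untreated knockout (3.60 times), but not in untreated wild type. The position 49436651 to 49437500 was listed in the knockout only, at 2.12 times the median with osimertinib and at 2.60 times without it. The regions of the maximum fell within 50, 150, 200 and 100 bp of each other across lists at the 4 positions in order along the chromosome, on a grid of 50 bp bins. In both treated lists the maximum of the peak at 49433951 to 49435400 lay outside the listed interval. The sources used here do not say whether the authors left out repeat-rich regions, and the part of repeated sequence in these maxima was not tested.

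**Figure D2:**
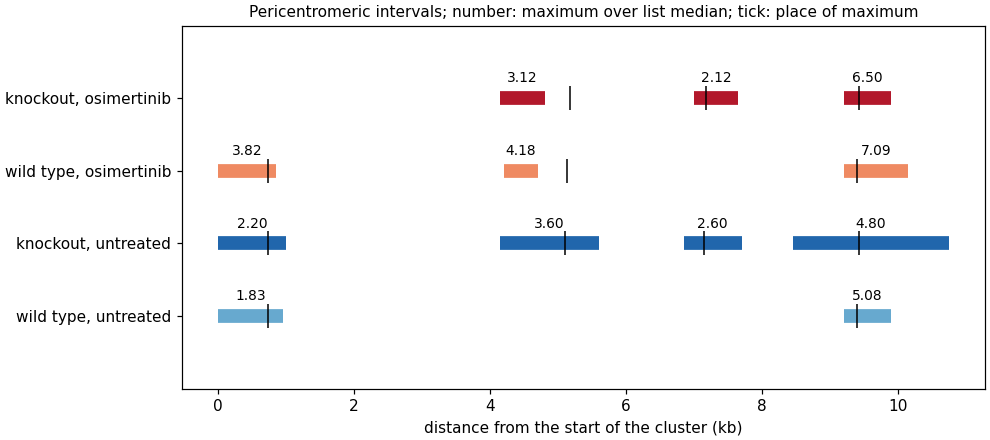
The pericentromeric intervals of each list (bars), by distance in kb from the start of the cluster, with the place of the maximum of the called peak (tick) and that maximum over the median maximum of the list (number). The ticks line up between lists at each of the 4 positions, and the rightmost position is present in every list with values of 4.80 to 7.09.

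Along the arm itself the called peaks were low. From 50 Mb onward, 0 of 96 intervals in the treated knockout, 0 of 308 in treated wild type, 1 of 260 in the untreated knockout and 0 of 451 in untreated wild type reached 2 times the list median. Outside the stretch the share that did so was 1.96% in the treated knockout, 1.12% in treated wild type, 1.73% in the untreated knockout and 0.432% in untreated wild type. No high peaks were left out there, whereas the arm was counted without its cluster. With the cluster the share on the stretch was 3.03% in the treated knockout and 0.965% in treated wild type. It was 1.89% in the untreated knockout and 0.221% in untreated wild type. The 1 interval from 50 Mb onward that reached 2 times, at 177719151 to 177721150 in the untreated knockout, stood at 2.20 times the median. In the treated knockout the highest outside the cluster was 167764151 to 167765350 (1.62 times). In treated wild type it was the pair 176020601 to 176021850 and 176022551 to 176023900, both from 1 called peak at 1.64 times. In untreated wild type it was the pair 170054301 to 170058350 and 170060751 to 170065050, both from 1 called peak at 1.50 times. The median maximum of all intervals of the stretch was 0.875 times the list median in the treated knockout, 0.909 times in treated wild type, 1.0 in the untreated knockout and 0.833 times in untreated wild type. Maxima differ by whole steps within a list. The median was 7 steps and the lowest 4 in the treated knockout, 10 and 6 in treated wild type, 5 and 3 in the untreated knockout, and 10 and 5 in untreated wild type. The median thus lay only a few steps above the lowest maximum in each list.

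Widths followed those of the lists. In the treated knockout the median interval was 1000 bp wide (quartiles 500 and 1350, whole list 1150). In treated wild type it was 1100 bp (850 and 1400, whole list 1200). In the untreated knockout it was 1600 bp (1200 and 2000, whole list 1650), and in untreated wild type 2500 bp (1900 and 3100, whole list 2600). Fewer intervals of the stretch were pieces of a split called peak than in the lists at large: 4.04% against 33.7% in the treated knockout, 39.2% against 49.9% in treated wild type, 1.52% against 3.34% in the untreated knockout and 36.0% against 49.96% in untreated wild type. Intervals also stood farther apart than elsewhere. The 1 Mb window of the median interval held 6 intervals, itself included, in the treated knockout (whole list 41). It held 18 in treated wild type (whole list 25), 11 in the untreated knockout (46) and 21 in untreated wild type (43).

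The share of the list that fell on the stretch was lowest in the treated knockout. It was 1.32% in the treated knockout (95% interval 1.08 to 1.61), 3.22% in treated wild type (2.88 to 3.59), 2.11% in the untreated knockout (1.87 to 2.38) and 2.96% in untreated wild type (2.70 to 3.25). By summed length the intervals covered 95.5 kb in the treated knockout, 361.8 kb in treated wild type, 414.4 kb in the untreated knockout and 1154 kb in untreated wild type. By number of intervals, not by summed length, the 2 wild-type shares lay close together and the 2 knockout shares did not. With each list limited to its highest maxima, to the length of the shortest list with ties kept, this turned: the shares were 1.32% in the treated knockout and 3.05% in treated wild type, against 1.61% in the untreated knockout and 1.60% in untreated wild type. The short arm behaved differently: there the shares were 0.974% in the treated knockout, 13.5% in treated wild type, 1.25% in the untreated knockout and 1.48% in untreated wild type. The stretch accordingly held 57.6% of the chromosome 5 intervals in the treated knockout, 19.2% in treated wild type, 62.9% in the untreated knockout and 66.7% in untreated wild type.

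The comparison of the genotypes under osimertinib asks how TOP2B occupancy differs without METTL7A in cells grown under the drug. The knockout had 99 intervals and wild type 311, a ratio of list shares of 0.410 (0.324 to 0.516). The deficit was present in each filled block and was smallest at the end of the arm. From 130 to 145 Mb the counts were 2 in the knockout and 19 in wild type (ratio 0.136, 0.0153 to 0.562). From 145 to 165 Mb the knockout had 24 and wild type 95 (0.326, 0.199 to 0.514). From 165 to 175 Mb the knockout had 15 and wild type 74 (0.261, 0.139 to 0.459). From 175 Mb on the knockout had 53 and wild type 120 (0.569, 0.404 to 0.793). By called peaks the last of these ratios was 0.747 (0.513 to 1.08), with an interval that includes 1. Of the 4 windows of 5 Mb with at least 20 intervals in either list, 3 fell by 2-fold or more in list share in the knockout and 0 rose by as much. Over the genome 48.9% of such windows fell and 26.3% rose past that limit in this comparison, so a fall of this size was common between these lists. The smallest ratios, with 0.5 added to each count, were at 170 to 175 Mb (13 in the knockout and 57 in wild type, 0.303) and 150 to 155 Mb (7 against 30, 0.317). The largest were at 175 to 180 Mb (51 against 119, 0.555) and 145 to 150 Mb (15 against 49, 0.403).

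Without drug, the same genotype comparison gave smaller differences by block when intervals were counted. The knockout had 264 intervals and wild type 453, a ratio of shares of 0.713 (0.610 to 0.831). Ratios for the filled blocks ranged from 0.648 (130 to 145 Mb, 18 in the knockout and 34 in wild type) to 0.828 (145 to 165 Mb, 86 and 127), with intervals that overlap one another. Of the 5 windows of 5 Mb examined, 0 fell and 0 rose past 2-fold, against 17.3% that fell and 3.33% that rose over the genome. The smallest ratios were at 175 to 180 Mb (75 in the knockout and 146 in wild type, 0.630) and 170 to 175 Mb (48 against 88, 0.670), and the largest at 145 to 150 Mb (46 against 69, 0.818) and 150 to 155 Mb (26 against 40, 0.800). Windows of 1 Mb ranged more widely, from 0.432 at 176 to 177 Mb (17 against 49) to 0.996 at 177 to 178 Mb (17 against 21). By called peaks the block ratios ran from 0.466 to 0.781. From 175 Mb on this ratio was 0.598 (0.447 to 0.796), a larger difference than the 0.747 (0.513 to 1.08) between the treated genotypes, with intervals that overlap. Among intervals with a maximum at or above the median of their list, the share was 1.61% in the knockout (149 of 9276) and 1.60% in wild type (127 of 7925), a ratio of 1.00. Since many maxima tie at the median, this kept 74.2% of the knockout list and 51.9% of the wild-type list, so the limits were not equally strict.

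Setting treated against untreated wild type addresses occupancy after long exposure to the drug, and the share of the long arm differed little. The treated list had 311 intervals and the untreated list 453, a ratio of shares of 1.09 (0.937 to 1.26). The interval of this ratio lies far below that of the short arm, where 1308 treated and 226 untreated intervals gave a ratio of 9.16 (7.95 to 10.6). With each called peak counted once the short-arm ratio was 6.01 (5.12 to 7.08) and that of the long arm 1.04 (0.881 to 1.23). The first 46 Mb and the rest of the same chromosome therefore differed in their ratio by more than counting error. Of the 5 windows of 5 Mb examined on the long arm, 0 rose and 0 fell past 2-fold, against 31.3% that rose and 33% that fell over the genome. The largest ratios were at 175 to 180 Mb (119 treated and 146 untreated, 1.29) and 150 to 155 Mb (30 against 40, 1.19), and the smallest at 165 to 170 Mb (17 against 40, 0.684) and 170 to 175 Mb (57 against 88, 1.03). The ratio depended on which peaks were counted. It was 1.58 among intervals at or above the median maximum of their list and 1.90 with lists limited to their highest maxima, where 262 of 8600 treated and 127 of 7925 untreated intervals lay on the stretch.

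In the knockout, the same comparison gave a lower share under osimertinib, and the blocks parted. The treated list had 99 intervals and the untreated list 264, a ratio of shares of 0.625 (0.491 to 0.791). From 175 Mb to the end the ratio was 1.03 (0.716 to 1.46, from 53 treated and 86 untreated intervals). From 130 to 145 Mb it was 0.185 (0.0208 to 0.774, 2 treated and 18 untreated). From 145 to 165 Mb it was 0.465 (0.283 to 0.739, 24 treated and 86 untreated), and from 165 to 175 Mb it was 0.357 (0.190 to 0.630, 15 treated and 70 untreated). The last block therefore held 53.5% of the treated intervals of the stretch (43.2 to 63.6) and 32.6% of the untreated ones (27.0 to 38.6). Of the 5 windows of 5 Mb examined, 3 fell and 0 rose past 2-fold, against 9.17% that fell and 3.67% that rose over the genome. The smallest ratios were at 165 to 170 Mb (2 treated and 22 untreated, 0.185) and 170 to 175 Mb (13 against 48, 0.464), and the largest at 175 to 180 Mb (51 against 75, 1.14) and 145 to 150 Mb (15 against 46, 0.556). At 1 Mb, the window from 176 to 177 Mb held 21 treated and 17 untreated intervals, a ratio without the added 0.5 of 2.06 (1.03 to 4.16). When each called peak was counted once, 1 of the 5 windows fell past 2-fold.

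**Figure D3:**
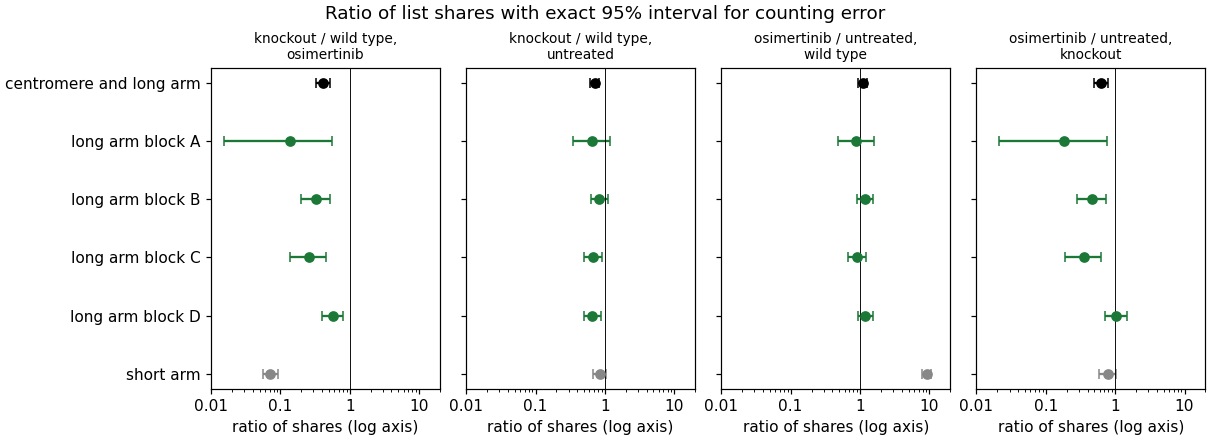
Ratio of the shares of 2 lists that fall on the stretch, on its blocks A (130 to 145 Mb), B (145 to 165 Mb), C (165 to 175 Mb) and D (from 175 Mb), and on the short arm, on a log axis with 1 panel per comparison (points, ratio; bars, exact 95% interval for counting error; line, ratio of 1). Block D lies nearest to 1 in both comparisons with the treated knockout. The short arm at 0.0719 and 9.16 stands apart from the whole stretch and blocks B to D in both comparisons with treated wild type. Between the treated genotypes the interval of block A (0.0153 to 0.562) spans that of the short arm (0.0560 to 0.0911).

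Few intervals lay at the same place in 2 lists. A counterpart here is an interval of another list that shares 1 bp or more with the interval in question. Between the treated lists, 18 of 99 knockout intervals (18.2%, 11.1 to 27.2) had a counterpart in wild type and 18 of 311 wild-type intervals (5.79%, 3.47 to 8.99) had one in the knockout, against 13.4% of the knockout list and 10.5% of the wild-type list. Between the untreated lists, 75 of 264 knockout intervals (28.4%, 23.0 to 34.3) had one in wild type and 72 of 453 wild-type intervals (15.9%, 12.6 to 19.6) had one in the knockout, against 53.7% of the knockout list and 35.1% of the wild-type list. In wild type, 83 of 311 treated intervals (26.7%, 21.9 to 32.0) had an untreated counterpart and 74 of 453 untreated intervals (16.3%, 13.1 to 20.1) a treated one, against 28.7% of the treated and 14.8% of the untreated list. In the knockout, 11 of 99 treated intervals (11.1%, 5.68 to 19.01) had an untreated counterpart and 11 of 264 untreated intervals (4.17%, 2.10 to 7.33) a treated one, against 43.7% of the treated and 23.4% of the untreated list.

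In the knockout the shared intervals lay at the ends of the stretch. Of the 11 treated intervals with an untreated counterpart, 3 were in the pericentromeric cluster and 8 lay beyond 175 Mb. From 130 to 175 Mb none was shared: 0 of 24 treated and 0 of 86 untreated intervals from 145 to 165 Mb (which allows up to 14.2% and 4.20%), and 0 of 15 and 0 of 70 from 165 to 175 Mb (up to 21.8% and 5.13%). In wild type, 31 of 95 treated intervals from 145 to 165 Mb (32.6%, 23.4 to 43.0) had an untreated counterpart. From 165 to 175 Mb it was 8 of 74 (10.8%, 4.78 to 20.2) and from 130 to 145 Mb 1 of 19 (5.26%), so the counts in these 2 blocks do not set wild type apart from the knockout. More treated knockout intervals overlapped an interval of untreated wild type, 35 of 99 (35.4%, 26.01 to 45.6, against 59.6% of the whole list), than one of the untreated knockout, and the intervals of untreated wild type were the widest and the most numerous. No counterpart in any other list was found for 54 of 99 intervals of the treated knockout (54.5%, against 29.5% of the whole list), 201 of 311 of treated wild type (64.6%, against 64.7%), 161 of 264 of the untreated knockout (61.0%, against 39.3%) and 311 of 453 of untreated wild type (68.7%, against 51.8%).

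Overlap rises with the density of a list, so shares with a counterpart were also compared in classes of density. The classes were set by the number of intervals of the other list (neighbours) in the same 1 Mb window. The top class, 40 or more, has no upper limit, so density is not matched within it. In each direction of the 4 comparisons, windows with 5 or more such neighbours gave 28 classes with intervals on the stretch. The share on the stretch was below that of the rest of the list in 24 of them and above it in 4, with 95% intervals apart in 4 of the lower ones and 0 of the higher ones. These classes are not separate observations. The 2 directions of a comparison score the same overlaps, and each list enters 2 comparisons. Among untreated knockout intervals with 40 or more untreated wild-type neighbours, 19 of 47 on the stretch (40.4%, 26.4 to 55.7) and 68.7% of 7455 elsewhere (67.6 to 69.8) had a counterpart. Those on the stretch had 46 neighbours (149 to 150 Mb) or 49 (176 to 177 Mb), while those elsewhere could have any number from 40 up. With 10 to 19 such neighbours a counterpart was found for 6 of 42 on the stretch (14.3%, 5.43 to 28.5) and 33.6% of 1064 elsewhere (30.8 to 36.6). Treated wild-type intervals with 20 to 39 untreated wild-type neighbours had one for 31 of 144 on the stretch (21.5%, 15.1 to 29.1) and 37.4% of 1292 elsewhere (34.7 to 40.1). Treated knockout intervals with 20 to 39 untreated knockout neighbours had one for 0 of 11 (up to 28.5%) and 32.97% of 1086 (30.2 to 35.9). In the opposite direction of each of these comparisons the share was lower in every class from 5 neighbours up, but the intervals overlapped. Untreated wild type in the untreated knockout, for example, had 41 of 231 on the stretch (17.7%, 13.0 to 23.3) and 21.0% of 2189 elsewhere (19.3 to 22.8) with 10 to 19 neighbours. The 4 classes above the rest were 3 of the treated knockout in treated wild type and 1 of treated wild type in untreated wild type. In the sparsest windows, with 0 to 4 neighbours, the stretch with its cluster was higher in 7 of 8 directions. Intervals were apart only for both directions between the wild-type lists (18.2% against 4.39% for treated and 10.3% against 2.50% for untreated wild type). The exception was the untreated knockout in the treated knockout, with 3 of 159 on the stretch (1.89%, 0.391 to 5.41) and 4.41% of 2266 elsewhere. All 3 of these shared intervals lay in the cluster, so along the arm none was shared in this class. All intervals of the pericentromeric cluster fall in this class. They were 2 of the 2 shared intervals of the treated knockout in treated wild type, and 3 of 3 in the untreated knockout. Treated wild type had 2 of 4 in the treated knockout and 2 of 6 in untreated wild type. In the other higher directions it was 2 of 8 or 2 of 10. The higher shares thus rest partly or wholly on the cluster, and were not computed for the arm alone.

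**Figure D4:**
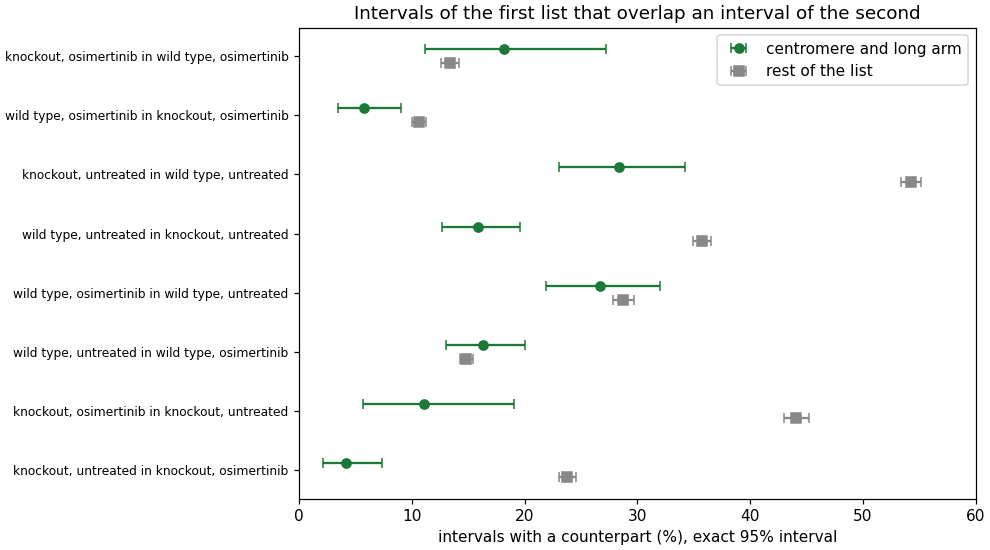
Share of the intervals of one list that overlap an interval of another by at least 1 bp, in percent, for the stretch (circles) and for the rest of the same list (squares), with exact 95% intervals for counting error. The shares on the stretch lie below the rest of the list by the widest margins between the untreated lists and between the knockout lists, and close to it between the wild-type lists, with no matching for density.

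Where 2 lists shared an interval along the arm, their maxima seldom coincided, and the same held over the rest of the lists. Between the treated lists, 16 knockout intervals from 50 Mb onward had a wild-type counterpart. The maxima of the overlapping called peaks were a median of 4775 bp apart, with 0 of 16 within 250 bp, against 9.73% outside the stretch. Between the untreated lists the median distance was 2275 bp, with 9 of 73 within 250 bp (12.3%, 5.80 to 22.1), against 8.35% outside it. Between treated and untreated wild type it was 2375 bp, with 5 of 81 within 250 bp (6.17%, 2.03 to 13.8), against 6.74%. Between the knockout lists it was 862 bp, with 2 of 8 within 250 bp, against 12.7%. For each comparison the 95% interval of the arm's share holds the share outside the stretch. Outside the stretch the median distance was 2875 bp between the treated lists and 3425 bp between the untreated lists. It was 4100 bp between the wild-type lists and 1300 bp between the knockout lists. The arm's median was thus larger between the treated lists and smaller in the other comparisons. All pairs in the pericentromeric cluster, 2 or 3 in each comparison, had maxima within 75 bp. Called peaks can extend beyond the listed interval, so these distances include peaks that are wider than the overlap.

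Joining overlapping intervals of all lists gave 894 positions on the stretch. A single list accounted for 727 of them (81.3%, 78.6 to 83.8), against 72.9% over the genome, 128 were in 2 lists (14.3%, against 17.2%), 30 were in 3 (3.36%, against 7.61%) and 9 were in all lists (1.01%, 0.461 to 1.90, against 2.29%). Of the 9 positions, 4 held bases covered in every list, against 55.2% of such positions over the genome, and in the others the intervals only formed a chain. By the summed rank of their maxima, the first was the pericentromeric position named above, with 700 bp common to all lists. The next was 176121101 to 176126450, with 50 common bases and maxima of 1.25 times the list median in the treated knockout, 1.27 times in treated wild type, 1.0 in the untreated knockout and 0.833 times in untreated wild type. The next 3, 176737401 to 176742800, 149663001 to 149667850 and 176919401 to 176926650, had no base in common, with maxima of 0.833 to 1.60 times the list median. The remaining common bases were at 178621051 to 178621150 and 178764901 to 178765350, named after their values had been seen.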

How the data were processed

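TOP2B CUT&RUN libraries (2 replicates in each of 4 groups) are represented by 4 deposited lists, 1 per group. The 8 H2A samples were not analysed here. Reads were placed on GRCh37 per the submitters' processing notes, which list Bowtie2 2.4.2, SEACR, bedtools 2.30, deepTools 3.5.1, SAMtools 1.16, Trimmomatic and FastQC. The sources used here do not give the settings of peak calling, the handling of duplicates or any excluded regions. The area of a called peak is a deposited score (signal summed over the peak) and used only to recognise intervals of the same called peak. The maximum is a deposited signal, in whole steps that differ between lists to a tolerance of 0.01 steps. Area and maximum belong to the called peak, not to the interval. The lists carry no read counts, so depth is unknown. 

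Positions are counted from 1. Python 3.11.15, pandas 2.3.3 and scipy 1.17.1 were used. Exact 95% intervals were computed by Clopper-Pearson for shares and conditionally on the summed counts for ratios. Windows of 5 Mb with at least 20 intervals in either list were examined, with 0.5 added to each count and a ratio of 2 as the limit. Named positions are, by rule, the fullest windows of 5 and 1 Mb, the 2 largest and 2 smallest window ratios, the 3 highest called peaks per list, the 5 leading positions of all lists and the longest empty stretch. The stretch, rules and blocks were chosen with earlier results of these data known. Replicates could not be left out or paired. Sequences were not printed, since a GRCh37 genome was not used here.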

Additional observations from a re-analysis of the deposited data

Results flagged for a closer look

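With all intervals counted, the list share of the stretch was lower with osimertinib in the knockout and differed little in wild type. The ratio of shares, treated over untreated, in the knockout was 0.625 (0.491 to 0.791), whereas wild type had 1.09 (0.937 to 1.26, an interval that includes 1). With each list limited to its highest maxima, as many as the shortest list holds with ties kept, the ratios were 0.823 in the knockout and 1.90 in wild type, and with maxima at or above the list median they were 0.571 in the knockout and 1.58 in wild type. With 1 list per group the difference between the genotypes was not tested. It was smaller from 175 Mb on, where the ratios were 1.03 in the knockout and 1.19 in wild type.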

How the results depend on the processing

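No paired analysis was possible because each group had 1 list made from both replicates, and for the same reason no replicate could be left out. The ratio of shares of the treated genotypes stayed within its 95% interval under every alternative run. Keeping maxima at or above the list median gave shares of 0.917% in the treated knockout, 2.53% in treated wild type, 1.61% in the untreated knockout and 1.60% in untreated wild type. The ratio of knockout to wild type without drug then became 1.00, and that of treated to untreated wild type 1.58. Limiting each list to the length of the shortest, with ties kept, left 7493 to 9276 intervals. For the untreated lists it kept the same intervals as the limit at the median (1.61% and 1.60%, ratio 1.00), so it adds no second check there. It gave ratios of 1.90 for treated over untreated wild type and 0.823 for treated over untreated knockout. Counting called peaks once gave 1.61% in the treated knockout, 3.60% in treated wild type and 3.45% in untreated wild type. Summed length gave 1.02% in the treated knockout, 1.78% in the untreated knockout and 2.38% in untreated wild type, and a ratio of 1.26 for treated over untreated wild type. Without the short arm in the denominator the treated wild-type share was 3.73%. Starting at 50 Mb, or at 130 Mb (added after seeing the data), moved none of these shares beyond its interval.

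With 10 intervals as the minimum, windows at least 2-fold lower became 5 of 6 between the treated genotypes and 1 of 9 between the untreated genotypes. They became 1 of 9 for treated over untreated wild type and 6 of 8 for treated over untreated knockout. In 1 Mb windows they became 2 of 10 between the untreated genotypes, against 31 of 231 over the genome. For treated over untreated knockout only 2 windows of 1 Mb qualified, with 0 lower and 1 higher. Over the genome 16 of 158 were lower and 5 higher in that comparison. Called peaks gave 1 of 5 for treated over untreated knockout, and ratios of numbers gave 1 of 5 for treated over untreated wild type. Of these alternatives, the genome share was computed for 1 Mb windows only.

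An overlap of 50% of both intervals lowered the shares with a counterpart to 8.08% (treated knockout) and 2.57% (treated wild type) between the treated genotypes, 9.47% (untreated knockout) and 5.52% (untreated wild type) between the untreated genotypes, 5.47% (treated) and 3.75% (untreated) in wild type, and 3.03% (treated) and 1.14% (untreated) in the knockout. A gap of up to 1000 bp raised them to 38.6% (untreated knockout) and 21.9% (untreated wild type) between the untreated genotypes, 36.7% (treated) and 21.9% (untreated) in wild type, and 21.2% (treated) and 7.58% (untreated) in the knockout. High maxima alone gave 13.4% for the untreated knockout in wild type and 16.8% for treated in untreated wild type. Called peaks gave 19.9% for untreated wild type in the knockout. The summed width per called peak had a median of 1250 bp in treated and 2750 bp in untreated wild type. Joining over 1000 bp (added after seeing the data) put 74.0% of the positions of the stretch in a single list. All values in this paragraph are for the stretch alone. They were not computed for the whole lists or the genome, so they do not show whether the stretch differs from either. The cause of these shifts was not tested. Most maxima lay a few steps above the lowest listed, which limits any reading of absent intervals.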
